A study of Mus musculus with 2 samples.

Results

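The genes described here encode proteins of the cytosolic ribosome. They were chosen by symbol alone, as the genes annotated to a probe set with 1 symbol that begins with Rpl, Rps or Rplp, goes on with a number and ends there or with a, l or x. The choice gave 45 genes with 98 probe sets, of 18193 genes and 45037 non-control probe sets on the arrays, with 24 genes of the large subunit and 21 of the small subunit. Where a gene had several such probe sets, the brightest over both arrays stands for it, and the others serve as a check. The source was ATDC5, a mouse cell line of the cartilage lineage, and the question of the study was which genes answer to Nell-1, a secreted osteogenic glycoprotein, without new protein being made. The tested array held RNA of serum-starved cells that received 10 µg/ml cycloheximide (CHX), which blocks translation, for 30 min, followed by 30 min of recombinant human Nell-1 at 100 ng/ml (CHX+Nell-1). The other array held RNA of equally starved and CHX-treated cells that received PBS in place of Nell-1 (CHX+PBS). Both groups therefore carry CHX, and neither shows the cells without it. Each group has 1 array, so no test was possible, no value has an error between cultures, and each ratio compares 2 RNA samples. Signals are MAS5 intensities, in which a probe set's level cannot be set against that of another.

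A ribosome joins ribosomal RNAs with a set of proteins that are needed in near-equal numbers, and cells make these proteins from mRNAs that are among the most abundant they hold. In mammals most of these mRNAs begin with a terminal oligopyrimidine (TOP) tract, a C followed by further C and U bases, through which growth signals acting by mTOR raise or lower their translation without changing the amount of mRNA. The large subunit carries the peptidyl transferase centre, the exit tunnel for the new chain and a protein stalk that binds elongation factors. The small subunit holds the mRNA channel and the decoding site.

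Around their annotated starts the genes had longer runs of C and T than protein-coding genes at large, a feature the symbols did not use. In RefSeq (build GRCm38.p6), 39 of the 45 genes had a promoter entry. In a window from 30 bases before the annotated start to the 20 bases from it on, the longest unbroken run of C and T had a median of 9 bases in these 39 genes and 5 bases over 17492 protein-coding genes. A run of 10 or more stood in 14 of the 39 (35.9%) and in 11.0% of protein-coding genes. These are not counts of TOP tracts. A run could lie anywhere in the window, and in Rpl4 and Rps25, for example, it ends before the annotated start, outside the annotated mRNA. The windows below are shown because they place the longest run in genes whose values are given further on. The first 6 have long runs at or beside the start, Rps26 has a run just inside the gene, and Rps4x and Rpl41 have none over 4 bases. Each window runs 5′ to 3′ on the gene's strand, and capitals mark its longest run of C and T.
Rpl7a (chr2:26910777-26910826, plus strand): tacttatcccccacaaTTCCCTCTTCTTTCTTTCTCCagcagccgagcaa
Rpl27a (chr7:109519165-109519214, plus strand): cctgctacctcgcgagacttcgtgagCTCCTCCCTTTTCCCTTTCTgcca
Rpl35 (chr2:39005112-39005161, minus strand): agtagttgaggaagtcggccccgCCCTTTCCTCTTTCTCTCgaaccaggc
Rpl13a (chr7:45128726-45128775, minus strand): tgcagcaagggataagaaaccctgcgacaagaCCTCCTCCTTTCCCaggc
Rps10 (chr17:27635225-27635274, minus strand): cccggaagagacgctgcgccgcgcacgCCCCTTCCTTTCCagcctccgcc
Rps18 (chr17:33955646-33955695, minus strand): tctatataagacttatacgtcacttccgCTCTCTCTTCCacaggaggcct
Rps26 (chr10:128626487-128626536, minus strand): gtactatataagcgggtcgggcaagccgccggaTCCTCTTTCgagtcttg
Rps4x (chrX:102189372-102189421, minus strand): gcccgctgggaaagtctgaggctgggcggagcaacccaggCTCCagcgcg
Rpl41 (chr10:128549149-128549198, minus strand): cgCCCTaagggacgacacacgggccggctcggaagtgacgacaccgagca

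Other short motifs were looked for on both strands of the 300 bases from 250 before the start to 50 after it. CCGGAAG, the core of sites for ETS factors, stood in 19 of the 39 genes (48.7%) and in 12.9% of protein-coding genes. CTTTCC, which can lie inside the C and T runs above, stood in 51.3% and in 28.8%. GGGCGG, the core of the GC box, differed less, with 53.8% and 49.2%, and TATAAA stood in 12.8% and 14.8%. Such matches describe the letters of these windows only.

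Ribosomal protein transcripts measured nearly alike with Nell-1 and with PBS. Of 45 genes, none was at least 1.5-fold higher with Nell-1, the fold the submitters used as a filter, and 2 were at least 1.5-fold lower. Over all genes 13.1% were higher and 19.0% lower by that fold. The median log2 ratio of CHX+Nell-1 over CHX+PBS was -0.09 for the 45 genes and -0.06 for all genes. It turned to 0.057 when the arrays were scaled to equal medians, which moved all genes by 0.15 to a median of 0.09. Median centring adds the same 0.15 to every log2 ratio given here, so the sign of ratios closer to 0 than that depends on the scaling.

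**Figure D1:**
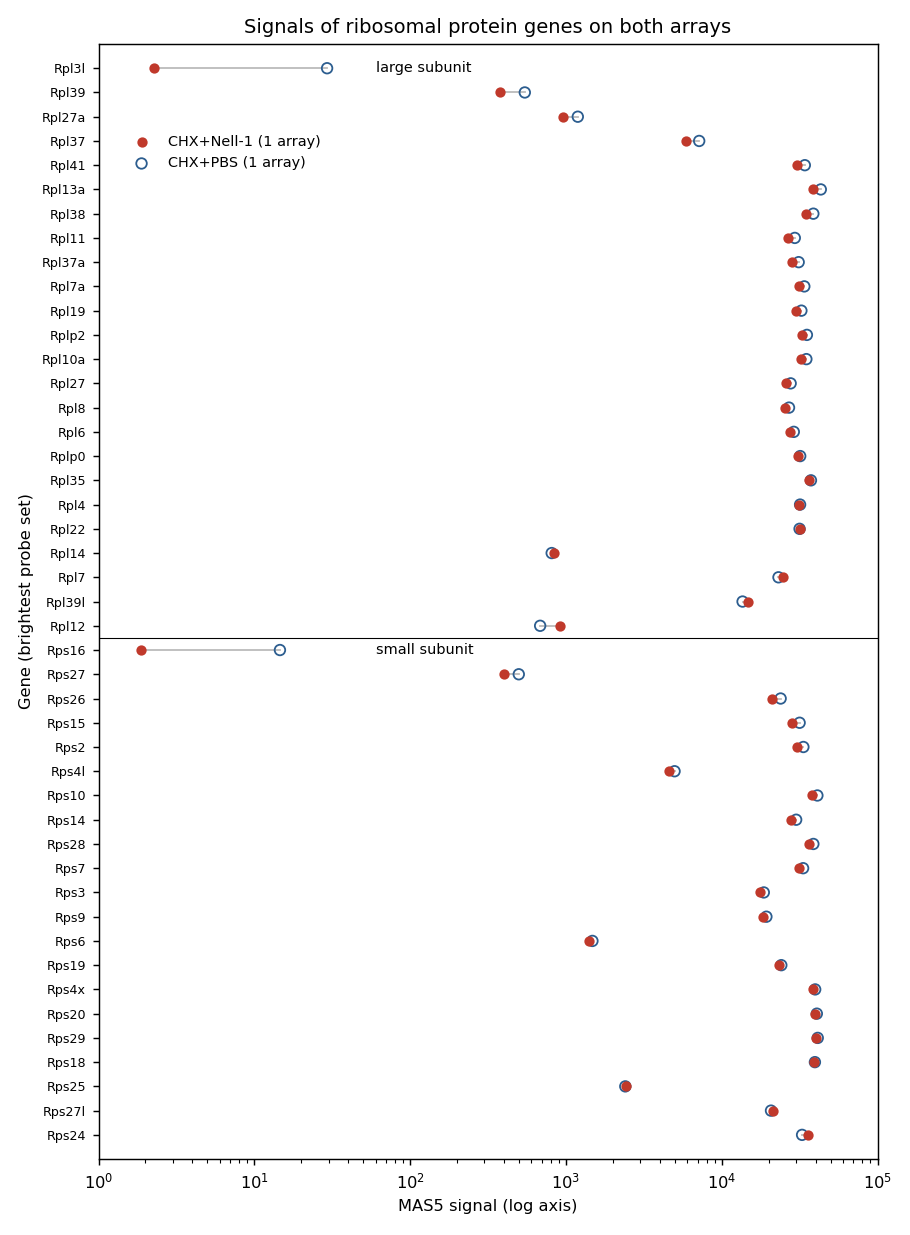
MAS5 signal (log axis) of the brightest probe set of each of the 45 genes, large subunit above and small subunit below, with filled red points for the CHX+Nell-1 array and open blue points for the CHX+PBS array. For most genes the points overlap above a signal of 10000, and Rpl3l and Rps16 are the 2 genes with signals under 30 on both arrays.

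The spread among the genes was narrow where the signal was high. In the brightest 10% of genes, those with a mean signal of at least 2799, lay 36 of the 45. Their log2 ratios ran from -0.28 to 0.12, and the middle of them, between the quartiles, from -0.13 to -0.04. Between the same quartiles the other 1784 genes of the brightest 10% ran from -0.14 to 0.13. None of the 36 reached 1.5-fold, against 0.989% of the brightest 10% higher and 0.879% lower by that fold. At 1.2-fold, none of the 36 was higher and 1 was lower, against 10.9% and 9.23%. Other genes of like signal were about as narrow. Over a mean signal of 20000, where 31 of the 36 lay, the quartiles were -0.13 and -0.04. For 73 other genes of that class they were -0.14 and -0.02. Over 30000 they were -0.12 and -0.04 for 20 ribosomal protein genes and -0.15 and -0.08 for 17 others.

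Small negative ratios were common to very bright genes. Of the 45 ribosomal protein genes 37 had a log2 ratio below 0, against 55.3% of all genes, of the 43 at or above the median signal 35 did, against 54.2%, and of the 36 in the brightest 10% 31 did, against 52.5%. Among genes with a mean signal over 20000, however, 79.8% of all 104 were below 0. In that class 27 of 31 ribosomal protein genes and 56 of 73 others were below 0, with medians of -0.09 and -0.08. The others hold related genes, among them the ribosomal protein gene Rpsa and the TOP mRNA Eef1a1, and were not counted without them. None of the 31 reached 1.2-fold, against 0.962% of the class higher and 0% lower. Above 30000, 20 ribosomal protein genes had a median of -0.09 and 17 other genes one of -0.13. After median centring only 11 of the 45 were below 0. Below 20000 the medians lay further apart: 3 ribosomal protein genes between 10000 and 20000 had -0.07 and 267 other genes -0.01, and 2 ribosomal protein genes between 2799 and 10000 had -0.20 and 1444 other genes 0.00. Over the whole brightest 10% the medians were -0.09 for the 36 ribosomal protein genes and -0.01 for the other 1784.

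**Figure D2:**
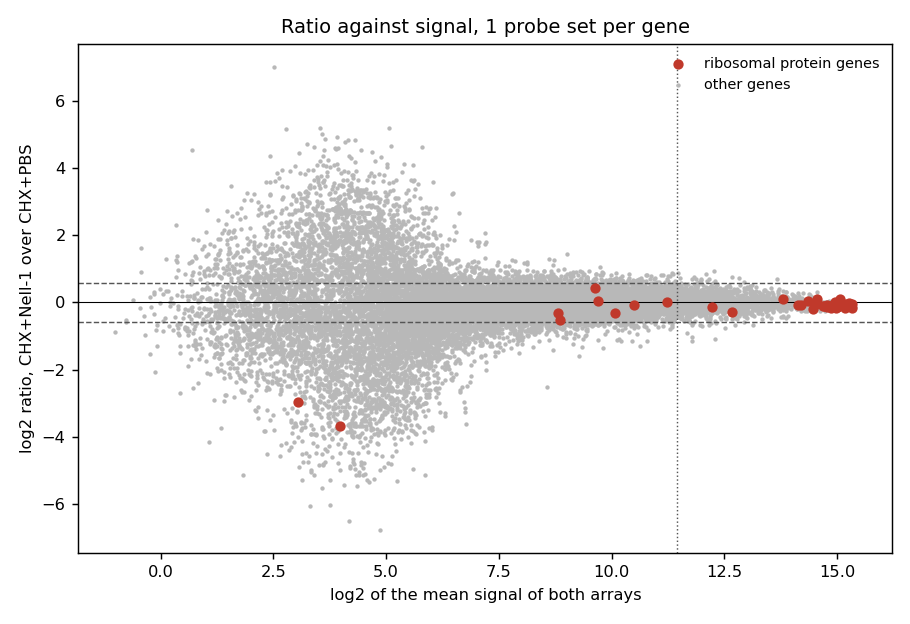
Log2 ratio of CHX+Nell-1 over CHX+PBS against the log2 mean signal, 1 probe set per gene, with red points for the 45 ribosomal protein genes and grey points for the other genes. Dashed lines mark 1.5-fold and the dotted line the lower limit of the brightest 10%, to the right of which 36 of the 45 red points lie, none past a dashed line.

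Proteins of the large subunit had a median log2 ratio of -0.11 over 24 genes, which became 0.043 with median centring. Among the stalk proteins, Rplp0, the base of the stalk and a common PCR reference gene, measured 30808 with Nell-1 and 31860 with PBS. Rplp2, which forms the stalk's arms together with Rplp1, measured 32559 and 35178 in the same order of arrays. The log2 ratios of -0.05 and -0.11 lie inside the range of the bright members.

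Rpl11, which with Rpl5 and 5S rRNA forms a particle that can bind the p53 regulator Mdm2, measured 26533 with Nell-1 and 29417 with PBS, a log2 ratio of -0.15. Rpl5 itself, Rplp1, Rpl10, Rpl23a and Rpl35a were not analysed here. Rpl4, which lines the exit tunnel, had 31132.5 with Nell-1 and 31811 with PBS, a log2 ratio of -0.03. Rpl35, which sits at the tunnel's exit and has one of the long pyrimidine runs above, had 36425 with Nell-1 and 37348 with PBS, a log2 ratio of -0.04. Median centring moves all 3 ratios to or above 0.

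Rpl8, near the peptidyl transferase centre, had a log2 ratio of -0.09, and Rpl38, which in mouse embryos is needed for translation of Hox mRNAs, one of -0.15. Rpl13a, which in human monocytic cells can leave the ribosome and silence translation of inflammatory mRNAs, measured 38565 with Nell-1 and 43200 with PBS, a log2 ratio of -0.16. Rpl41, the shortest of these proteins, measured 30401 with Nell-1 and 34114 with PBS, a log2 ratio of -0.17. The longest C and T run of the window was 14 bases in Rpl13a, just inside the gene, and 4 bases in Rpl41, before its start. Whether such runs go with the ratio over the genes was not tested. Another 7 bright large-subunit genes, Rpl6, Rpl7a, Rpl10a, Rpl19, Rpl27, Rpl37a and Rpl22, had log2 ratios from -0.13 for Rpl37a to 0.02 for Rpl22.

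The lowest large-subunit ratios belonged to genes read by dimmer probe sets. Rpl39, a small protein of the exit tunnel wall, measured 377 with Nell-1 and 544 with PBS, 1.44-fold lower. Rpl27a measured 956 with Nell-1 and 1191 with PBS, 1.25-fold lower, and Rpl37, a zinc-binding protein, 5914 with Nell-1 and 7163 with PBS, 1.21-fold lower. None of the 3 reached 1.5-fold. Rpl39 and Rpl27a also have probe sets with several symbols, which the choice of genes leaves out, so these values are those of 1 dim probe set and do not speak for the gene. Of genes at or above the median signal 23.7% were at least 1.2-fold lower.

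The highest of the 45 ratios was that of the single-symbol probe set of Rpl12, a protein of the stalk base, with 912 on the CHX+Nell-1 array and 683 on the CHX+PBS array, 1.34-fold higher. Rpl14, also represented by a dim probe set, had 837 with Nell-1 and 810 with PBS, a log2 ratio of 0.05. Both genes have further probe sets with several symbols, so the same limit applies to them. Rpl7, which interacts with the 5S rRNA region, measured 24729 with Nell-1 and 23119 with PBS, a log2 ratio of 0.10, and its other 2 probe sets were also above 0, at 0.03 and 0.22.

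Proteins of the small subunit had a median log2 ratio of -0.09 over 21 genes, which became 0.064 with median centring. Rps6, the substrate of the S6 kinases downstream of mTOR, measured 1407 with Nell-1 and 1479 with PBS, a log2 ratio of -0.07. Rps2 and Rps3, at the entry of the mRNA channel, had 30176 and 17509.5 with Nell-1, against 33398 and 18609.6 with PBS. Their log2 ratios were -0.15 and -0.09.

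Several small-subunit genes are mutated in Diamond-Blackfan anaemia, a human disorder of red cell production. Rps19, the gene most often affected, measured 23170 with Nell-1 and 24102 with PBS, a log2 ratio of -0.06. Rps26, which lies at the exit of the mRNA channel, measured 21064 with Nell-1 and 23863 with PBS, a log2 ratio of -0.18. Rps24 went the other way, with 35551 with Nell-1 and 32766 with PBS, a log2 ratio of 0.12, the highest of the small subunit. Rps14, lost on one chromosome copy in human 5q- syndrome, had a log2 ratio of -0.11.

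Rps10 and Rps20, both ubiquitinated when ribosomes collide, had log2 ratios of -0.11 and -0.05. Rps18, a protein of the subunit's head and another PCR reference gene, measured 38978 with Nell-1 and 39602 with PBS, a log2 ratio of -0.02. Another 6 bright genes, Rps4x, Rps7, Rps9, Rps15, Rps28 and Rps29, lay between -0.16 for Rps15 and -0.03 for Rps29. Rps25, needed for some internal ribosome entry sites, had a dim probe set and a log2 ratio of 0.01. Rps27, a zinc-binding protein, was also dim, with 402 with Nell-1 and 498 with PBS, 1.24-fold lower on a probe set with the same limit as that of Rpl39. Rps27a was not analysed here.

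The only 2 genes past 1.5-fold had almost no signal. Rpl3l, a relative of Rpl3 made in heart and skeletal muscle, measured 2.28 with Nell-1 and 29.3 with PBS. The single-symbol probe set of Rps16, whose protein touches the tRNA in the P site, measured 1.88 with Nell-1 and 14.6 with PBS. Both mean signals lie under 17.9, the 25th percentile of all probe sets, so both ratios rest on some of the lowest signals of the arrays and the folds are not given. The Rps16 value does not speak for the gene, because the pattern requires a single symbol and further probe sets for ribosomal proteins carry several.

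Those probe sets with several symbols, which match a ribosomal protein together with pseudogenes or other loci, gave a check outside the chosen set. There were 110 of them, and 85 lay in the signal range of the brightest 10%. Their median log2 ratio was -0.08, with a range from -0.23 to 0.30, and 69 were below 0. Below 0 were also 52.5% of genes in the brightest 10% and 79.8% of those over 20000. None of the 85 reached 1.5-fold, which was rare in the brightest 10%, with 0.989% of genes higher and 0.879% lower. Counted over all 110, 5 were at least 1.5-fold higher and 1 lower, against 13.1% and 19.0% of all genes. Among the 6 dimmest, under the median signal, 4 were higher and 1 was lower by that fold. No gene was named from the 110.

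Relatives of standard ribosomal proteins were also among the 45 genes, most of them with bright probe sets. Rpl39l, a relative of Rpl39 needed for sperm formation in mice, measured 14719 with Nell-1 and 13598 with PBS, a log2 ratio of 0.11. Rps27l, a relative of Rps27 induced by p53, measured 21348 with Nell-1 and 20697 with PBS, a log2 ratio of 0.04, and all 3 of its probe sets were above 0. Rps4l, a relative of Rps4x, measured 4575 with Nell-1 and 4977 with PBS, a log2 ratio of -0.12, while Rps4x had 38319 with Nell-1 and 39755 with PBS, one of -0.05. Signals of different probe sets are not comparable as levels, so no order of abundance within these pairs is given. Whether probes of such near-identical sequences also bind each other's transcripts was not tested.

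Further probe sets of the same gene gave a check within each RNA sample. Of 53 further probe sets, 33 were in the signal range of the brightest 10%, with log2 ratios from -0.26 to 0.22, a median of -0.08 and 24 below 0. Among all genes of the brightest 10%, 52.5% were below 0, and among those over 20000, 79.8%. Another 12 further probe sets lay between the median signal and the range of the brightest 10%. They spread from -1.12 to 2.26, with 5 below 0, against 54.2% of genes at or above the median signal. In 19 genes, 2 or more probe sets exceeded the median signal: 9 of these genes had all ratios below 0, 2 had all above 0 and 8 were mixed. Such signs were not counted for genes outside the chosen set. The bright probe sets of a gene therefore repeated its small ratio more closely than its dim ones did.

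In 6 genes the probe sets above the median signal differed among themselves by 1.5-fold or more. How often those of other genes do so was not counted. Rps24 had 4 bright probe sets with log2 ratios from 0.00 to 0.12, another with 1237 with Nell-1 and 582 with PBS, and the dimmest with 60.9 with Nell-1 and 133 with PBS. The dim pair of Rps24 thus pointed in opposite directions. The brightest probe set of Rps9 lay at -0.07, a dimmer one had 1253 with Nell-1 and 1770 with PBS, and the dimmest had 124 with Nell-1 and 26.0 with PBS. Rpl35 had 5 bright probe sets from -0.10 to -0.01 and a dim one at -0.76. In Rpl37a, Rpl41 and Rps10 dim probe sets lay at 0.57, 0.70 and 0.57, above bright ones that were all below 0.

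Genes that work beside the ribosomal proteins were set against them from lists. Of 5 measured ribosomal proteins and relatives whose symbols the pattern leaves out, none reached 1.5-fold, and their median log2 ratio of -0.10 became 0.05 with median centring. Rpsa, a small-subunit protein, measured 38398.5 with Nell-1 and 41251 with PBS, and Rps3a1 32668 with Nell-1 and 31277 with PBS. The lowest of the 5 was Rpl22l1, a relative of Rpl22, at -0.23.

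Translation factors and other TOP mRNAs were more spread than the ribosomal proteins. Their 19 measured genes had a median of 0.05, and 0.06 to 0.21 under the 4 rescalings, with 8 below 0. By 1.5-fold 1 was higher and none lower, and all 19 belong to the brightest 10% of genes, in which 0.989% were higher and 0.879% lower. They ran from the initiation factor gene Eif3h at -0.23 to Hnrnpa1, an RNA-binding protein, at 0.69. Eef1a1, the elongation factor that brings tRNAs to the ribosome, measured 30430.5 with Nell-1 and 35316 with PBS, a log2 ratio of -0.21. The group reached further above 0 than the 36 bright ribosomal protein genes and not further below it. Its median signal was lower, 16186 with Nell-1 and 17286 with PBS, against 30288.5 and 31836 for the 36. Genes outside the chosen set spread more at lower signal. Their quartiles were -0.14 and 0.15 between 2799 and 10000, and -0.14 and -0.02 over 20000. The lists were not compared at like signal.

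The list of ribosome assembly factors and RNA polymerase I genes had a higher median ratio than the ribosomal proteins. Of 26 genes, 5 were at least 1.5-fold higher with Nell-1 and none was lower, against 4.56% and 7.53% of genes at or above the median signal. The median was 0.20, and 0.18 to 0.35 under the 4 rescalings, in which 5 to 8 genes passed 1.5-fold higher and none lower. Rrp9, which binds the U3 small nucleolar RNA, was the highest, with 1169 with Nell-1 and 631 with PBS, 1.85-fold higher. Eif6, which keeps the subunits apart, was the lowest at -0.14. The RNA polymerase I genes did not share the high ratios. Polr1a and Polr1b lay at 0.16 and -0.02, and the polymerase's factors Rrn3 and Ubtf at 0.01 and -0.12. The difference between the lists was not tested.

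Mitochondrial ribosomal proteins, which form the separate ribosome inside mitochondria, had a median of 0.05 over 76 genes, and 0.04 to 0.20 under the rescalings, with 27 below 0. Mrpl47 was the only one at least 1.5-fold higher, with 759 with Nell-1 and 276 with PBS, and Mrps18a the only one at least 1.5-fold lower, with 2734 with Nell-1 and 4120.0 with PBS. All 76 were at or above the median signal, where 4.56% of genes were higher and 7.53% lower by that fold. After median centring 2 of the 76 were higher by that fold and none was lower.

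**Figure D3:**
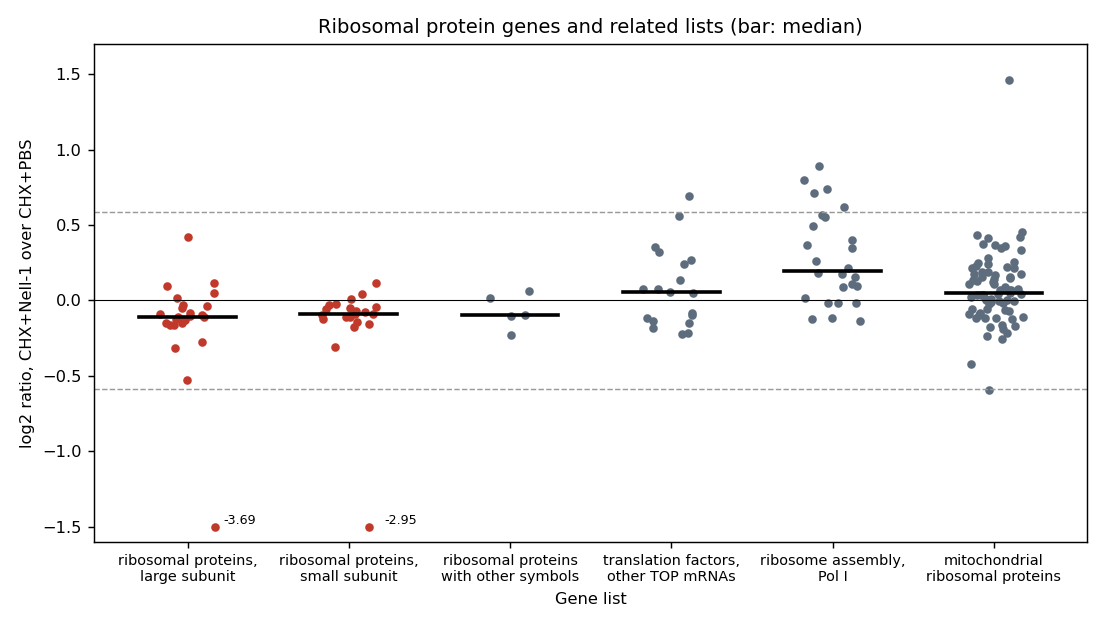
Log2 ratio of CHX+Nell-1 over CHX+PBS for the genes of 6 lists, with 1 point per gene, a black bar at the median of the list and dashed lines at 1.5-fold. The ribosomal proteins of both subunits cluster just below 0, with the dim Rpl3l and Rps16 drawn at the lower edge, and the assembly list lies highest, with a median of 0.20.

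Measures of the whole arrays limit how far such small ratios can be read. Of 27 probe sets for poly-A spike-in RNAs added before labelling, 26 were lower with Nell-1, and the median log2 ratio of the 27 was -0.51. The 1 that was higher had almost no signal, with 10.2 with Nell-1 and 4.19 with PBS. The 18 probe sets of hybridisation spike-ins were all lower as well, with a median of -0.18. In both groups several probe sets read the same RNA, so they are not separate readings. Their part in the ratios of the ribosomal protein genes was not tested. Of 9 cartilage lineage markers, 5 lay at or above the median signal, among them Sox9 with 2577 with Nell-1 and 3375 with PBS and Col2a1 with 1206 with Nell-1 and 909 with PBS. Sox5, Sox6 and Acan were higher as well, the last with 293 with Nell-1 and 176 with PBS. Under the median signal, Comp, Hapln1 and Matn1 were lower with Nell-1 and Matn3 was higher. The summed signal of all 9 was 4724 with Nell-1 and 5028 with PBS, in which Sox9 weighs most. All 5 mesenchymal markers were bright, with sums of 143073 and 162838 in the same order of arrays. The sums were 132 and 104 for haematopoietic, 476 and 573 for epithelial, 27.3 and 107 for endothelial and 166 and 205 for skeletal muscle markers. Sums over different probe sets cannot be set against each other as levels. Of these 14 genes 3 reached the median signal: Cd68, Epcam and Acta1. Epcam, with 370 with Nell-1 and 466 with PBS, made up most of the epithelial sum.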

How the data were processed

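The deposited values are intensities, linear MAS5 signals per probe set, 1 column per array, assigned to its sample by the sample's name. Per the submitters' processing notes, these came from Affymetrix Expression Console with MAS5; no version is recorded there. MAS5 subtracts mismatch from perfect-match signal and scales each array to a common trimmed mean; tested on the table, the mean without the outer 2% at each end was 500.0 on both arrays. Detection calls were not used here.

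Control probe sets (64) were set apart. The platform annotation gave 1 symbol to 34945 of 45037 probe sets, several to 932 and none to 9160, and gene IDs of 34741 were found in RefSeq (GRCm38.p6). Log2 ratios of the signals as deposited were computed with Python 3.11.15, pandas 2.3.3 and numpy 2.4.6, and loess with statsmodels 0.14.6. With 1 array per group no test, p-value or interval was computed, and the number of arrays limits the precision. The code was tested on simulated arrays. Named genes were those past 1.5-fold and the 6 highest and 6 lowest ratios above the median signal. Genes of fixed roles, genes with discordant probe sets and the extremes of the related lists were named too. Genes named only inside a range of values were added after their values were seen. So were Rpsa, Rps3a1, Eef1a1, Polr1a, Polr1b, Rrn3, Ubtf and the named cartilage markers. Rpl4, Rpl8, Rpl38, Rps20 and Rps25 were outside the fixed rules as well. The members and lists were chosen with earlier results of these data known. Alternatives were 4 rescalings, an added constant of 17.9, signal filters, other probe set rules, updated symbols, omission of relatives such as Rpl3l, and other fold thresholds. Planned comparisons of protein sequences were not run, since no protein table was used here.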

Additional observations from a re-analysis of the deposited data

How the results depend on the processing

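The median log2 ratio of the ribosomal protein genes stayed below 0 in 11 of 12 alternatives. Median centring turned it to 0.057, that of the large subunit to 0.043 and that of the small subunit to 0.064, and left 11 genes below 0, because it adds 0.15 to every log2 ratio. Quantile normalization gave a median of -0.028 for the 45 genes and -0.026 for all genes. It left 28 of the 45 below 0, against 9547 of all 18193 genes. With the second brightest probe set, 15 of 22 genes were below 0, against 55.3% of all genes on their brightest one. The count of genes at least 1.5-fold lower was 2 with signals as deposited. It was 0 over genes at or above the median signal, 0 with the second brightest probe set, 0 in the brightest 10% (an alternative chosen after seeing the data) and 1 without the relatives Rpl3l, Rpl39l, Rps27l and Rps4l, in each case because Rpl3l, Rps16 or both drop out. At 1.2-fold, 6 genes were lower and 1 was higher, against 33.0% and 24.7% of all genes. Without probe sets of the shared types (_s_at and _x_at), 2 of 40 genes were at least 1.5-fold higher. With all types kept, 13.1% of all genes and 4.56% of genes at or above the median signal were higher by that fold. The 2 were Rps24, on a probe set with 1237 with Nell-1 and 582 with PBS, and Rps9, on one with 124 with Nell-1 and 26.0 with PBS. Both have brighter shared probe sets near 0. In the brightest 10%, the median of the 36 genes minus that of the other genes was -0.08 as deposited and with median centring, -0.07 with loess and -0.01 with quantile normalization. Updated symbols gave the same 45 genes. Leaving out a replicate was not possible with 1 array per group. No paired analysis was possible because each group holds 1 array.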
